A study of Bos taurus with 60 samples.

Results

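In the endometrium of 60 beef heifers, 52 genes followed 1 gene described as interferon-linked, ENSBTAG00000008471 (called the anchor gene here). These genes had a low mean level over the heifers in which the anchor gene was low. They were chosen by 3 sets of measured values. On the log2 CPM scale (CPM, the counts of a gene scaled to the size of its library, with a prior count of 2), Pearson's r with the anchor gene over the 60 heifers had to be above 0.8. The mean CPM in the 14 heifers whose anchor gene was under a log2 CPM of 5.5 had to be below 10. The 100 genes with the largest summed counts and 6 listed genes, the anchor among them, were left out. The 52 members were 0.362% of the 14363 genes that passed the filter on low counts, and the table held 24616 genes. Because these values chose the members, they are given as a description and carry no test.

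Type I interferons bind a receptor on the cell surface that activates JAK kinases and STAT transcription factors, and these switch on a large set of interferon-stimulated genes. In cattle and other ruminants the elongating conceptus secretes a type I interferon, interferon tau, which acts on the endometrium around the time of maternal recognition of pregnancy and prolongs the life of the corpus luteum. Many interferon-stimulated genes are nearly silent in resting tissue, so that their basal level is low, and encode antiviral effectors, sensors, transcription factors and antigen-processing proteins.

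The word interferon in the name of this group comes from the anchor gene and could not be checked here. The counts carry Ensembl identifiers alone, and none of them (0) could be paired with the 37063 genes of the RefSeq table for assembly ARS-UCD2.0. For the same reason no function, position or sequence is given for a member, the lists of interferon pathway genes and of endometrial cell type markers could not be counted, and the labelled tissue could not be checked against its markers. Whether a member shares reads with a near-identical copy was not tested either. Members are therefore given by identifier and by what they did. The CPM values are not per length of gene, so levels are compared between heifers for the same gene and not between genes.

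Endometrium from the uterine horn on the side of the corpus luteum was taken at slaughter from nulliparous crossbred beef heifers whose oestrous cycles had been synchronised and which had all been inseminated, and 1 RNA library was sequenced for each. For 30 days up to insemination the heifers ate a straw, molasses and concentrate ration, fortified either with a fish oil supplement rich in n-3 polyunsaturated fatty acids (n-3 PUFA) or, in the control, with rumen-protected palmitic acid. For the next 16 days they stayed on that high plane of nutrition or were restricted to a low one, with the lipid supplement kept. The groups were CON_High with 14 heifers, CON_Low with 14, PUFA_High with 17 and PUFA_Low with 15. These sizes follow the title of each sample, whereas the overall design text gives 17 n-3 PUFA heifers to the low plane and 15 to the high plane, so a second run swapped the low and high labels among the supplemented heifers. In the methods of the study, the listed group sizes go with the titles, and the counts by pregnancy status go with the design text. Ages and the pregnancy status of individual heifers were not used here. Each library held 9635801 to 13943813 counts in total (median 11556278).

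Libraries fell into 2 clusters by the anchor gene. Its level was between 1.58 and 4.19 log2 CPM in 14 heifers and between 7.33 and 11.21 in the other 46, with an empty stretch of 3.15 log2 units between them. In reads, the lowest heifer, CON_High 9, had 30 reads on the anchor gene and the highest, CON_High 6, had 27468. The 14 heifers came from every diet: 3 of 14 in CON_High, 4 of 14 in CON_Low, 3 of 17 in PUFA_High and 4 of 15 in PUFA_Low. Sample codes carry 6 prefixes of 10 heifers each, whose meaning is not stated, and the low heifers were 5 of the 10 with prefix JE4, 3 each with JE2 and JE6, and 1 each with JE1, JE3 and JE5. The part of the prefix in these levels was not tested. The 46 and 14 heifers are measured classes, not groups of the study.

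Together the members took a small part of each library. The 52 genes drew a share of the counts that was 0.015% at the lowest, 0.161% at the median and 0.455% at the highest heifer. In the 14 heifers it lay between 0.015% and 0.027%, and in the 46 between 0.049% and 0.455%, so the classes did not overlap. In bulk tissue, fewer cells of a type and less RNA per cell cannot be told apart in such values. By diet, the median share was 0.147% in CON_High, 0.190% in CON_Low, 0.172% in PUFA_High and 0.144% in PUFA_Low. Every diet held heifers under 0.022% and over 0.32%, and the ranges overlapped throughout.

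**Figure D1:**
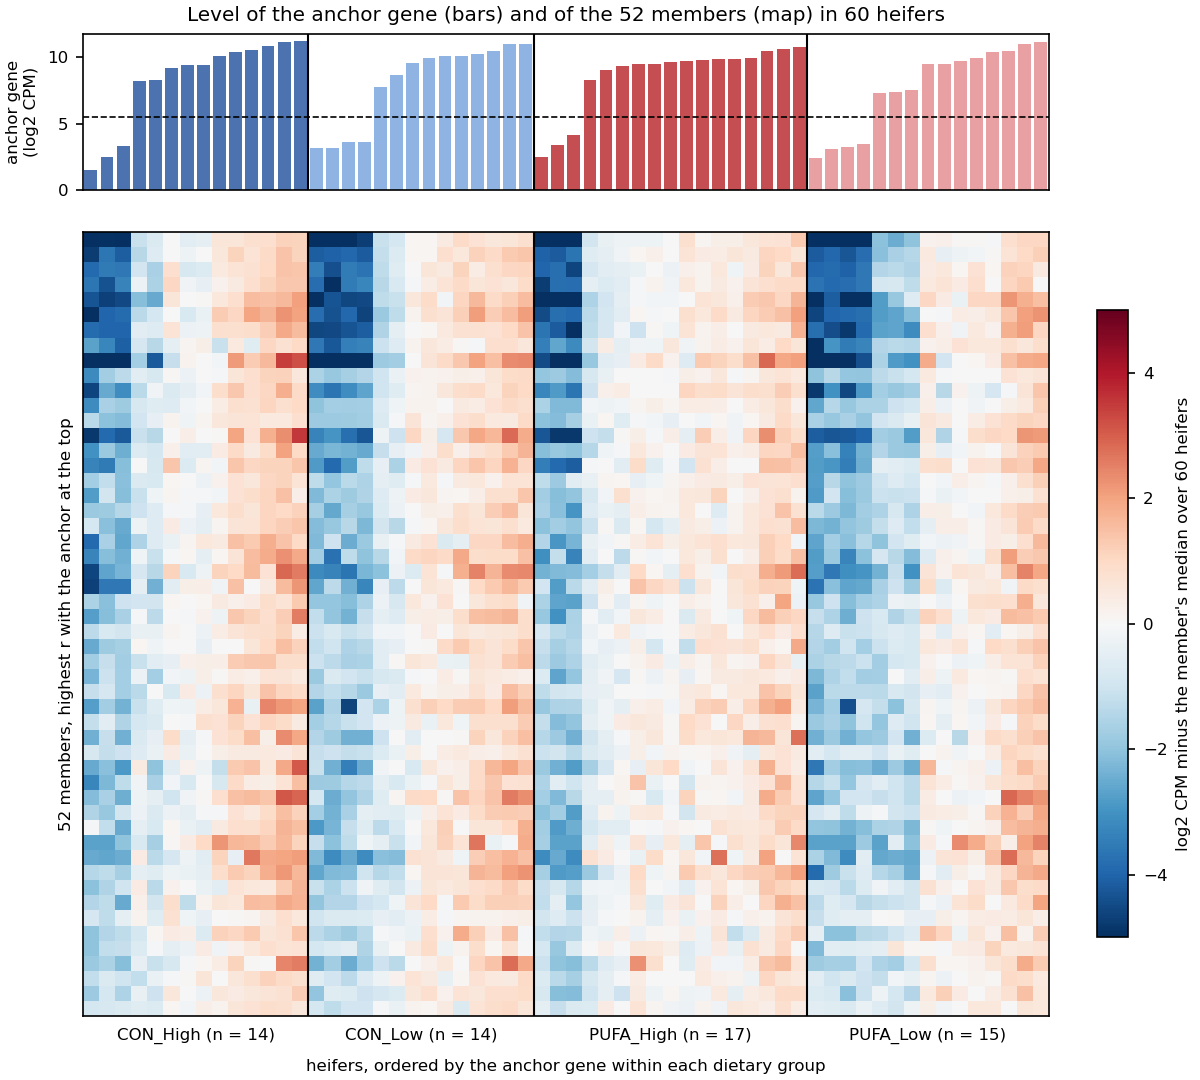
Top, level of the anchor gene (log2 CPM, 1 bar per heifer, dashed line at 5.5); bottom, log2 CPM of each of the 52 members minus its own median over 60 heifers, with colours limited to 5 log2 units either way. The heifers left of the step in each dietary group, 14 in all, are blue over nearly all members. The colour deepens towards red as the anchor gene rises within the other 46.

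The basal level, that is the mean over the 14 low heifers, ran from 0.0640 to 9.92 CPM with a median of 3.97. It was under 1 CPM for 12 members, between 1 and 5 for 18, and 5 or more for 22. These levels rest on few reads: the 14 libraries together held between 11 and 1637 reads per member, with a median of 650.5. A count of 0 occurred in the 14 for 6 members and in the 46 for 2, and a count of 0 in one of the 14 libraries allows a level of up to 0.205 to 0.339 CPM (3 counts), counting error alone considered. Just inside the limits of the rule, r was 0.8097 and 0.8122 and the basal mean 9.92 and 9.62 CPM, while just outside them r was 0.7981 and 0.7967 and the basal mean 10.3 and 10.5 CPM.

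The rise from the 14 to the 46 heifers, which the rule itself fixes in direction, differed widely in size. The mean CPM of the 46 was 1.91 to 150 times that of the 14, with a median of 5.69. It was over 10-fold for 16 members and under 3-fold for 7. For 13 members every one of the 46 heifers was above every one of the 14, and for the remaining 39 the classes overlapped. Of all genes tested, 0.362% were higher in the 46 without overlap, and nothing is read from this count because the rule used the same contrast. From the lowest to the highest of the 60 heifers the members spanned 2.16 to 10.48 log2 units, with a median of 5.05, against a median of 1.86 over all genes.

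The 3 members of highest r with the anchor gene were ENSBTAG00000007883, ENSBTAG00000012406 and ENSBTAG00000030932. The lowest, median and highest CPM of ENSBTAG00000007883 were 5.80, 346 and 902 in CON_High, 5.58, 428 and 779 in CON_Low, 7.36, 399 and 1008 in PUFA_High, and 7.90, 375 and 832 in PUFA_Low. Its 14 low heifers stopped at 15.2 CPM and its 46 others began at 72.8 CPM, so the classes were apart while the dietary groups overlapped nearly completely. The mean of the 46 was 52.6 times the basal mean, and r was 0.990 over 60 heifers.

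ENSBTAG00000012406 had a lowest, median and highest CPM of 2.62, 73.7 and 201 in CON_High, 3.94, 79.0 and 191 in CON_Low, 4.00, 88.3 and 155 in PUFA_High, and 3.62, 55.8 and 170 in PUFA_Low. ENSBTAG00000030932 ran 7.77, 119 and 314 in CON_High, 5.40, 135 and 252 in CON_Low, 4.70, 102 and 301 in PUFA_High, and 6.87, 125 and 260 in PUFA_Low. Both were highest in CON_High 1, and neither had a low heifer that reached any of the 46. The mean of the 46 exceeded the basal mean 22.7-fold for ENSBTAG00000012406 and 18.7-fold for ENSBTAG00000030932.

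ENSBTAG00000004560, ENSBTAG00000047302 and ENSBTAG00000034918 had the widest spans. ENSBTAG00000004560 went from 0 through 20.9 to 246 CPM (lowest, median and highest) in CON_High, from 0.0773 through 27.9 to 118 in CON_Low, from 0.0910 through 29.0 to 163 in PUFA_High, and from 0.318 through 11.4 to 85.5 in PUFA_Low. Its 14 low heifers held 58 reads in all and did not exceed 0.889 CPM, and the lowest of the 46 had 1.03 CPM. It had the largest ratio of class means, 150, over a span of 10.48 log2 units. The lower end of that span is a heifer with no read, whose log2 CPM of -2.53 is set by the prior count of 2. The lower end for ENSBTAG00000047302 is set in the same way. ENSBTAG00000047302 reached 56.3, 34.9, 24.3 and 22.4 CPM at the highest heifer of CON_High, CON_Low, PUFA_High and PUFA_Low, with medians of 4.86, 4.95, 5.00 and 1.56, and 3 of the 14 low heifers had no read on it. ENSBTAG00000034918 ran from 0.749 to 176 CPM in CON_High, 1.31 to 158 in CON_Low, 1.51 to 153 in PUFA_High and 1.36 to 178 in PUFA_Low, with medians of 32.9, 50.3, 40.2 and 35.4. All 3 kept the 14 apart from the 46.

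At the other end, ENSBTAG00000005786, ENSBTAG00000004989 and ENSBTAG00000017826 had the narrowest spans of the members, 2.16, 2.22 and 2.43 log2 units. ENSBTAG00000005786 had a lowest, median and highest CPM of 5.25, 13.1 and 23.4 in CON_High, 6.44, 11.4 and 16.7 in CON_Low, 6.01, 12.6 and 24.0 in PUFA_High, and 5.76, 13.6 and 19.8 in PUFA_Low. Its class means differed 1.91-fold, the smallest ratio among the members, and 3 of the 46 heifers lay at or below the highest of the 14. For ENSBTAG00000004989 and ENSBTAG00000017826 the class means differed 2.09-fold and 2.20-fold, and 6 of the 46 heifers lay at or below the highest of the 14 for each. The medians by diet of ENSBTAG00000004989 were between 6.36 CPM in PUFA_Low and 7.78 CPM in CON_High, and those of ENSBTAG00000017826 between 12.5 CPM in PUFA_Low and 15.7 CPM in CON_High.

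A correlation over 60 heifers in 2 clusters mixes the step between them with the spread inside each, so r was also taken within each class. All of these r share the libraries, their depth and their scaling, and none has a p. In the 46 heifers r with the anchor gene was 0.485 to 0.968, with a median of 0.831, against a median of -0.03 over all genes. It was over 0.8 for 35 members and under 0.7 for 3. In the 14 heifers r was -0.63 to 0.75, with a median of 0.115, and was above 0 for 30 members and below 0 for 22. Between pairs of members the median r was 0.848 over 60 heifers, 0.726 in the 46 and 0.110 in the 14. Since the 46 heifers are most of those on which the members were chosen, the high r among them comes in part from the rule.

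**Figure D2:**
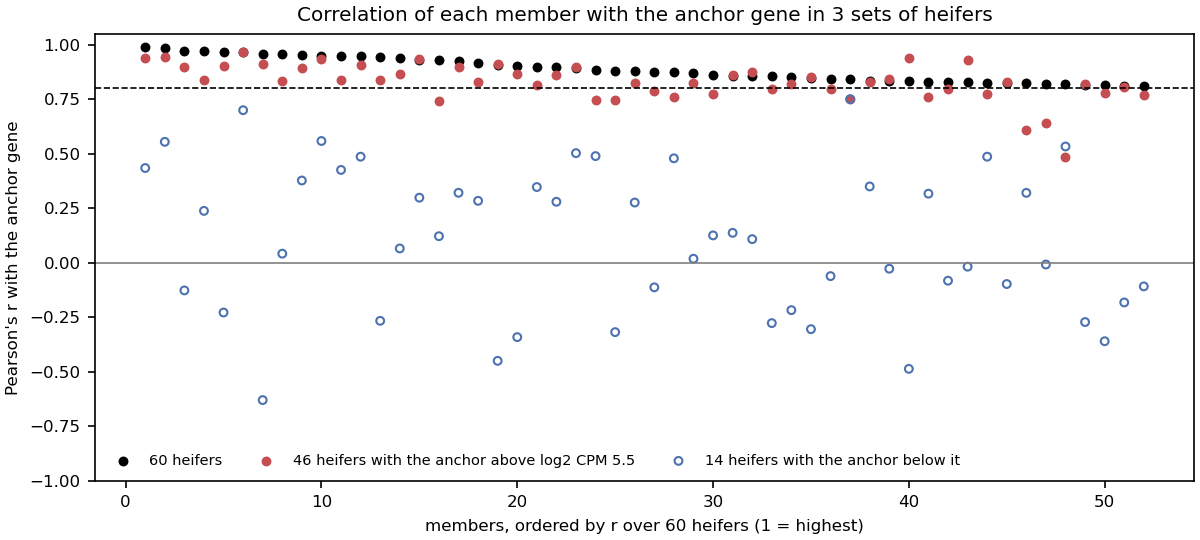
Pearson's r of each of the 52 members (horizontal axis, by rank of r) with the anchor gene over 60 heifers, in the 46 heifers above a log2 CPM of 5.5 and in the 14 below it; the dashed line is the limit of 0.8. The red points of the 46 stay between 0.485 and 0.968, while the open points of the 14 scatter from -0.63 to 0.75.

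Within the 46 heifers the members also differed in how much they rose per unit of the anchor gene. The slope, in log2 units of the member per log2 unit of the anchor gene, was 0.22 to 1.5 with a median of 0.65, over 1 for 8 members and under 0.5 for 10. ENSBTAG00000004560 had the steepest, 1.5 (SE 0.113, n = 46 heifers), and ENSBTAG00000034918, the member of highest r in the 46 (0.968), had 1.26 (SE 0.0492). ENSBTAG00000005786 had 0.22 (SE 0.0439), with r of 0.607 in the 46.

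Another pair of members was picked after their values were seen, because r in the 60 and in the 46 heifers stood far apart or the low class was uneven. ENSBTAG00000024851 had r of 0.820 over 60 heifers but 0.485 in the 46, the lowest of the members, with a slope of 0.22 (SE 0.0595). Its lowest, median and highest CPM were 0.655, 2.96 and 5.90 in CON_High, 1.00, 3.17 and 6.14 in CON_Low, 0.728, 3.21 and 6.71 in PUFA_High, and 0.565, 3.43 and 7.18 in PUFA_Low, so no heifer exceeded 7.18 CPM. ENSBTAG00000018125 had the reverse order, r of 0.834 over 60 and 0.939 in the 46. CON_High 9, the heifer lowest for the anchor gene, had 9.83 CPM of ENSBTAG00000018125, and 14 of the 46 heifers lay at or below that value.

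**Figure D3:**
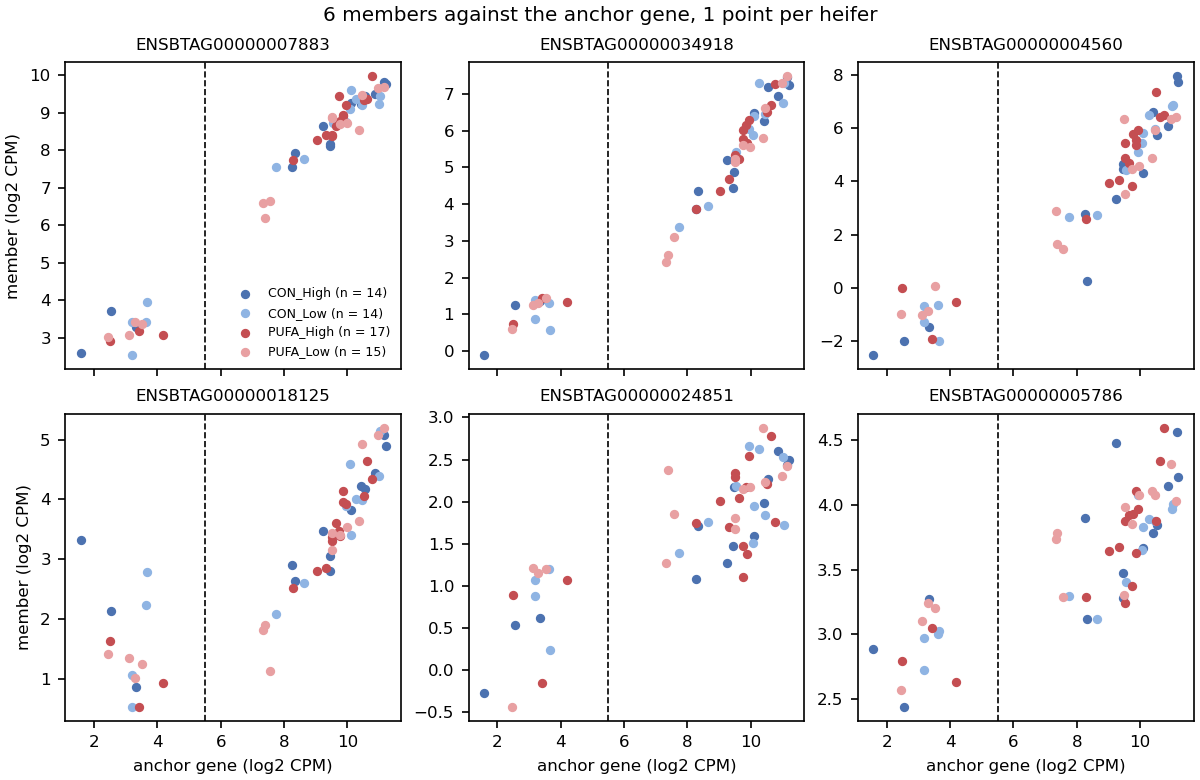
Log2 CPM of 6 members (vertical axes, each on its own scale) against log2 CPM of the anchor gene, 1 point per heifer coloured by dietary group, with a dashed line at 5.5. The 14 low heifers sit apart at the lower left for the upper 3 members, and for the lower 3 their levels overlap those of the 46, with CON_High 9 at 9.83 CPM (log2 scale in the plot) for ENSBTAG00000018125.

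Every diet and every sample code prefix held heifers of both classes, so a high r within each follows in part from the rule, and no difference between them was tested. The median r of the members with the anchor gene was 0.90 in CON_High, 0.921 in CON_Low, 0.878 in PUFA_High and 0.889 in PUFA_Low, and 33 of the 52 were above 0.8 in all 4 groups. Within the 6 code prefixes the median r was 0.889 to 0.928, and a single member could vary more: ENSBTAG00000024851 had 0.554 in JE1 and 0.899 in JE6. The 3 genes outside the group whose pattern was most like the mean of the members' z-scores over 60 heifers were ENSBTAG00000007867 (r = 0.984), ENSBTAG00000012335 (0.982) and ENSBTAG00000009664 (0.981). Their basal means, 246, 31.9 and 19.5 CPM, were above the limit of the rule. A set of 97 genes met the same limit of r with a basal mean of 10 CPM or more, and their median r was 0.866 in the 46 and 0.0944 in the 14.

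A few heifers held the extremes. The highest CPM of every member fell on 13 heifers, with 12 members highest in CON_High 1 and 7 in PUFA_Low 11. Among the 46, the 3 heifers with the lowest anchor gene were all in PUFA_Low, at 7.33, 7.39 and 7.57 log2 CPM in PUFA_Low 2, PUFA_Low 1 and PUFA_Low 13. In those 3 the median log2 CPM of the members was 2.65, 2.91 and 2.97, above the 1.48 to 2.32 of the 14 low heifers and at the bottom of the 2.65 to 5.17 of the 46.

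The dietary comparisons asked whether the supplement, the plane of nutrition or both together changed these genes. The rule did not use them. By the medians of the 4 groups, PUFA_Low was the lowest for 36 of the 52 members, CON_High for 7, PUFA_High for 5 and CON_Low for 4, whereas PUFA_Low had the lowest median for 37.4% of all genes. The highest median was in CON_Low or PUFA_High for 18 members each, in CON_High for 12 and in PUFA_Low for 4, against 33.4% of all genes for PUFA_Low. The members share the heifers and the anchor gene, so these counts are not 52 independent ones. The highest group median was 1.09 to 3.85 times the lowest, with a median of 1.47. For all 52 members the ranges of all 4 groups overlapped. Every diet held heifers low and high for the anchor gene, so this overlap follows largely from the rule and nothing is read from it.

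**Figure D4:**
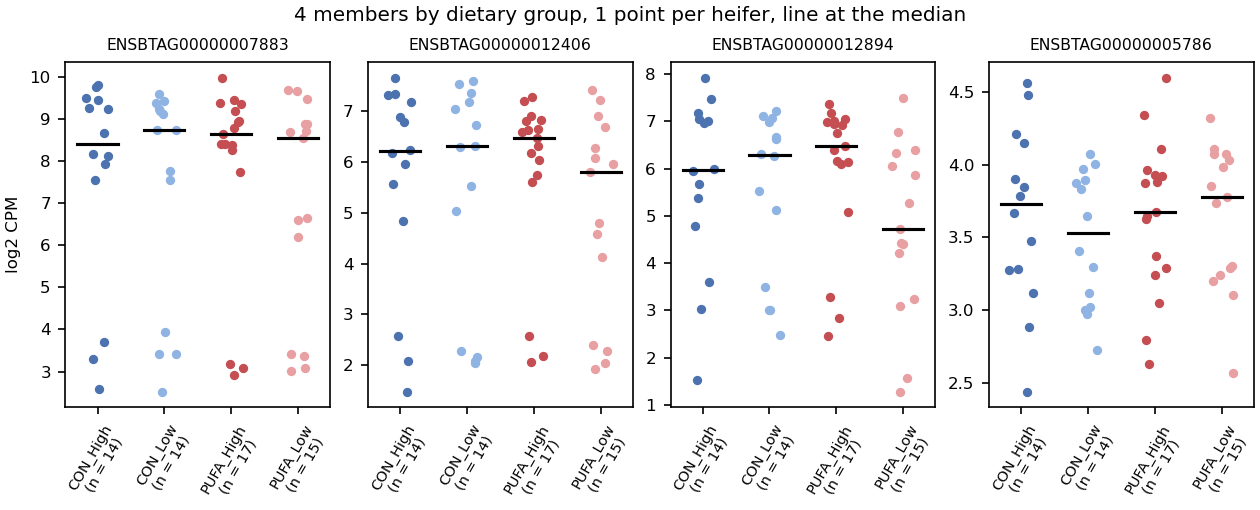
Log2 CPM of 4 members by dietary group, 1 point per heifer with a line at the group median. Each group splits into a low cluster of 3 or 4 heifers and a high one for ENSBTAG00000007883 and ENSBTAG00000012406, the split is less sharp for ENSBTAG00000012894 and absent for ENSBTAG00000005786, and all groups overlap.

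None of the 52 members was a differentially expressed gene (DEG, called at an adjusted p-value below 0.10 together with a change of more than 1.5-fold) in any of the 7 comparisons by edgeR's quasi-likelihood test. Of all 14363 genes tested, DEG were 2.57% for n-3 PUFA at the low plane and 0% at the high plane, 5.61% for the plane effect under n-3 PUFA and 0% in control heifers, 8.04% for the interaction, 0% for n-3 PUFA averaged over planes and 0.369% for the plane effect averaged over supplements. At an unadjusted p under 0.05 the members again counted 0 in each comparison, where all genes gave 26.5%, 10.5%, 35.6%, 4.91%, 29.1%, 8.79% and 17.1% in the same order. DESeq2 gave 0 DEG among the members and 0 at an unadjusted p under 0.05 in each of the 7 as well. The 97 correlated genes of higher basal level held 0 DEG too. By edgeR's test, 3 of them had an unadjusted p under 0.05 for the plane effect under n-3 PUFA. For the plane effect averaged over supplements 2 had one, and in the other comparisons 0. Leaving out PUFA_Low 11 alone of the 60 heifers changed a count, making ENSBTAG00000012894 a DEG for the plane effect under n-3 PUFA (log2 fold change -1.17, adjusted p = 0.0833).

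These zeros go with wide errors, which come in part from the rule. Nothing is read from how the zeros stand against the shares of all genes. The median SE of a member's log2 fold change was 0.44 for n-3 PUFA at the low plane and 0.43 at the high plane, and 0.42 in n-3 PUFA heifers and 0.45 in control heifers for the plane effect, against 0.14, 0.13, 0.13 and 0.14 over all genes. The median log2 fold change of the members was -0.18, -0.16, -0.13 and -0.12 in these 4 comparisons, where the median over all genes was between -0.03 and 0.00. For the interaction it was -0.03, for n-3 PUFA averaged over planes -0.18, and for the plane effect averaged over supplements -0.13. A 95% confidence interval lay wholly within a 2-fold change either way for 21 members for n-3 PUFA at the low plane, 24 at the high plane, 22 for the plane effect under n-3 PUFA and 24 in control heifers, and for 8 members for the interaction. It did so for 37 members for n-3 PUFA averaged over planes and 41 for the plane effect averaged over supplements. The median SE was 0.31 in both averaged comparisons. For the other members a change of 2-fold or more in at least 1 direction stayed within the interval.

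The plane effect under n-3 PUFA had the smallest adjusted p-value of the members, 0.181 by edgeR's test, for ENSBTAG00000015778, named after its value had been seen. Its log2 fold change, low against high plane, was -0.43 (SE 0.233, 95% confidence interval -0.89 to 0.04, n = 15 against 17). ENSBTAG00000007883, with its split into a low and a high cluster in every group, had -0.36 in the same comparison with an interval from -1.63 to 0.91. ENSBTAG00000005786, of narrow span, had -0.01 with an interval from -0.37 to 0.35, so a 2-fold fall was outside the interval for ENSBTAG00000005786 and inside it for ENSBTAG00000007883.

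Since most of the spread of the members followed the anchor gene, the 7 comparisons were repeated with its log2 CPM as a covariate, a choice made after that spread had been seen. The median SE of the members then fell to between 0.18 and 0.20 in the 4 comparisons within a plane or a supplement. The rule chose genes that follow the anchor gene in these heifers, so this fall is set by the rule and is no finding, and the p-values at equal anchor level rest on a spread that the rule made small. DEG among the members were 4 of 52 for the plane effect under n-3 PUFA, with 3 falling and 1 rising at the low plane, where 5.81% of all genes were DEG. The 4 became 2 without PUFA_Low 10, PUFA_Low 12 or PUFA_High 15. All 4 change sign when the low and high labels of the supplemented heifers are swapped. There was 1 for the interaction, where 8.65% of all genes were. The remaining 5 comparisons gave 0, with 2.65% of all genes as DEG for n-3 PUFA at the low plane, 0% for n-3 PUFA at the high plane, for the plane in control heifers and for n-3 PUFA averaged over planes, and 0.313% for the plane averaged over supplements. Of the 97 correlated genes of higher basal level, 4 were DEG for the plane effect under n-3 PUFA and 7 for the interaction. For n-3 PUFA at the low plane 1 of them was, and in the other comparisons 0. At an unadjusted p under 0.05 the members counted 13 for the plane effect under n-3 PUFA (38.4% of all genes), 5 for n-3 PUFA at the low plane (28.8%), 4 for the plane averaged over supplements (18.2%), 3 for the interaction (31.2%), 2 for n-3 PUFA at the high plane (11.4%) and averaged over planes (9.62%), and 0 for the plane in control heifers (5.26%). A gene that changed with diet apart from the anchor gene was less likely to reach the limit of r, so nothing is read from how these counts stand against those of all genes.

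**Figure D5:**
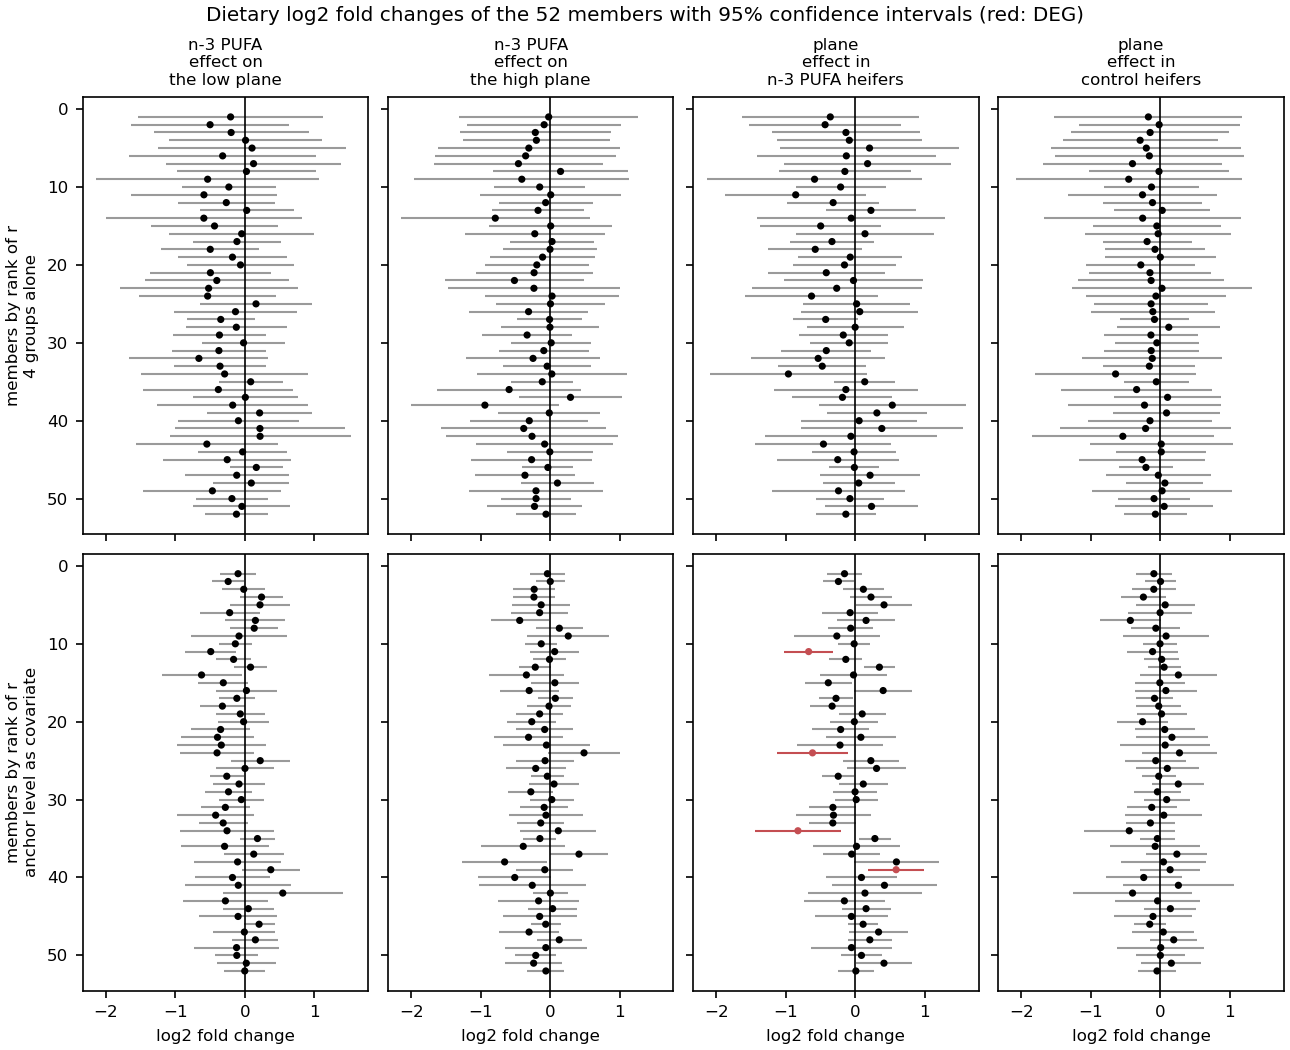
Log2 fold change of each of the 52 members (rank of r on the vertical axis, rank 1 at the top) with its 95% confidence interval, for 4 dietary comparisons from the 4 groups alone (upper row) and with the anchor gene's level as covariate (lower row). DEG are red: 0 in the upper row and 4 in the lower row, all for the plane effect under n-3 PUFA, where the intervals are narrower than above.

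ENSBTAG00000012894 was the member with the smallest adjusted p-value at equal anchor level. Its lowest, median and highest CPM were 2.72, 62.7 and 242 in CON_High, 5.40, 78.0 and 150 in CON_Low, 5.31, 89.5 and 165 in PUFA_High, and 2.26, 26.4 and 181 in PUFA_Low. The median was thus lowest in PUFA_Low, though the ranges overlapped. At the mean level of the anchor gene the fitted CPM were 52.2, 48.3, 54.6 and 34.3 in CON_High, CON_Low, PUFA_High and PUFA_Low. The plane effect under n-3 PUFA was a log2 fold change of -0.67 (SE 0.175, edgeR adjusted p = 0.00376), and from the 4 groups alone -0.86 (SE 0.507, adjusted p = 0.219). It stayed a DEG whichever 1 of the 60 heifers was left out, with log2 fold changes from -0.76 to -0.61, but was none once the share of each library taken by the 100 most abundant genes was added as a covariate (-0.25, adjusted p = 0.576). The p-values at equal anchor level of this member, and of those that follow, rest on a spread that the rule made small. These calls are given as a description, and no effect of diet is concluded from them.

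ENSBTAG00000013338 was scarce, with medians of 0.827, 0.744, 1.14 and 0.295 CPM and highest values of 4.50, 2.46, 5.94 and 2.31 CPM in CON_High, CON_Low, PUFA_High and PUFA_Low. At least 1 heifer in every group had no read on it, and the 14 low heifers together held 11 reads. Its plane effect in n-3 PUFA heifers at equal anchor level was -0.83 (SE 0.308, edgeR adjusted p = 0.0404), and it was no DEG without PUFA_High 4, its highest heifer (log2 fold change -0.62, adjusted p = 0.1003).

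ENSBTAG00000013167 had a lowest, median and highest CPM of 1.59, 41.2 and 203 in CON_High, 4.40, 45.0 and 140 in CON_Low, 6.19, 54.5 and 120 in PUFA_High, and 3.27, 27.1 and 84.8 in PUFA_Low. At equal anchor level its fitted CPM were 32.7, 39.5, 45.9 and 29.9 in the same order. The plane effect was -0.62 in n-3 PUFA heifers (SE 0.253, edgeR adjusted p = 0.0633) and 0.27 in control heifers (SE 0.268, adjusted p = 0.876), and their difference was -0.89 (SE 0.367, adjusted p = 0.0857). PUFA_High 15, 1 of the 14 low heifers, carried 22.7 CPM of this member, more than 6 of the 46, and without that heifer the plane effect under n-3 PUFA was -0.41 (adjusted p = 0.201) and the interaction -0.73 (adjusted p = 0.135), no longer DEG. The plane effect also missed the DEG limits without PUFA_High 3, PUFA_Low 2, PUFA_Low 7, PUFA_Low 10, PUFA_Low 12 or PUFA_Low 13, with values from -0.58 to -0.54, and was -0.53 (adjusted p = 0.110) with the code prefix as a block. The interaction was no DEG either with the code prefix as a block (-0.83, adjusted p = 0.107) or with no filter on low counts (-0.89, adjusted p = 0.112). With the low and high labels of the supplemented heifers swapped, the interaction changed sign and was no DEG. ENSBTAG00000013167 is named because it was a DEG, after its values had been seen.

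ENSBTAG00000011563 was the 1 DEG among the members with a higher level on the low plane. Its lowest, median and highest CPM were 0.955, 3.54 and 11.8 in CON_High, 0.641, 4.20 and 10.2 in CON_Low, 0.436, 5.2 and 9.24 in PUFA_High, and 1.58, 4.24 and 15.9 in PUFA_Low. The observed median was higher in PUFA_High than in PUFA_Low, whereas the fitted log2 fold change from the 4 groups alone was 0.31 (SE 0.360, adjusted p = 0.562). At equal anchor level the fitted CPM were 3.76, 4.14, 3.57 and 5.36 in CON_High, CON_Low, PUFA_High and PUFA_Low. The log2 fold change was then 0.59 (SE 0.202, edgeR adjusted p = 0.0258), just past the fold limit, and it fell short of a DEG in 25 of the 60 fits that left out 1 heifer, with values from 0.51 to 0.65. ENSBTAG00000008406 had a smaller p-value than ENSBTAG00000011563 but a change of 0.35 (SE 0.112, adjusted p = 0.0176), under the fold limit.

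The share of counts taken by the 100 most abundant genes differed between the diets. It was 18.8%, 20.9% and 28.2% (lowest, median and highest) in CON_High, 19.3%, 21.5% and 25.9% in CON_Low, 17.9%, 20.9% and 24.7% in PUFA_High, and 21.4%, 24.9% and 30.6% in PUFA_Low, so PUFA_Low was shifted upwards with overlap. Over the 60 heifers r with that share was below 0 for 50 of the 52 members, with a median of -0.17, against a median of -0.04 and 53.2% below 0 over all genes. This did not hold within each diet: the median r was -0.27 in CON_High, -0.51 in CON_Low, 0.22 in PUFA_High and -0.05 in PUFA_Low, and r was below 0 for 51, 52, 2 and 32 of the members. The anchor gene itself had r of -0.16 over the 60 heifers and -0.22, -0.51, 0.18 and 0.02 within these diets in the same order. The members were chosen to follow the anchor gene, so these counts of members are not independent ones. With the share added to the anchor gene as a covariate, 0 members were DEG for the plane effect under n-3 PUFA, and 4 had an unadjusted p under 0.05, where 12.6% of all genes had one. Beside that of ENSBTAG00000012894, the log2 fold changes became -0.98 for ENSBTAG00000013338 (edgeR adjusted p = 0.210), -0.33 for ENSBTAG00000013167 (0.707) and 0.64 for ENSBTAG00000011563 (0.195), and 47 of all genes (0.327%) were DEG. The share and PUFA_Low were only partly separate, and which of them the calls follow was not tested.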

How the data were processed

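RNA of 60 heifers was sequenced as 100 bp single-end mRNA libraries. The authors aligned reads with TopHat2 2.0.9 to UMD3.1 and counted them on genes with HTSeq 0.5.4p5 (submitters' processing notes), and deposited raw counts in 1 table. The strand setting is not given in the sources used here. All 60 columns were assigned and 0 rows lacked an identifier.

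Starting from these counts, filterByExpr, TMM scaling and a quasi-likelihood fit with 1 coefficient per dietary group were run in edgeR 4.0.16 (R 4.3.3). Benjamini-Hochberg adjustment of p-values covered all 14363 genes, and no p was adjusted over the members alone. Standard errors were derived from each F statistic. CPM use TMM-scaled library sizes. The fits were also run on simulated data, whose outcome is not given here and on which no result rests. DESeq2 1.42.0, other scaling factors, filters, thresholds, blocks, covariates, exchanged planes and leaving out each heifer were tried.

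Members, lists and tests were chosen with earlier results of these data known. Members to be named were those of highest r, of widest and narrowest span and with the smallest p where a DEG occurred. ENSBTAG00000015778, ENSBTAG00000024851, ENSBTAG00000018125 and ENSBTAG00000008406 were added after their values had been seen. The named members were limited to a few because identifiers could not be paired with names. Gene lists, cell type markers and sequences were therefore not used here. No pair of libraries within a group (423 checked) was alike enough to be repeats of 1 library.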

Additional observations from a re-analysis of the deposited data

Results flagged for a closer look

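ENSBTAG00000013167 stood out because its plane effect differed between supplements when the level of the anchor gene was held equal. The rule chose members that follow the anchor gene in these heifers, so the p-value rests on a spread that the rule made small. Nothing is concluded from the call. The difference of the log2 fold changes, the plane effect under n-3 PUFA minus that in control heifers, was -0.89 (SE 0.367, edgeR adjusted p = 0.0857 over all genes), 1 of 52 members where 8.65% of all genes were DEG. In 21 of the 60 fits that left out 1 heifer it was no DEG. It was none either with the code prefix as a block (-0.83), with the replicate block (-0.86), with no filter (-0.89) or with the share of the 100 most abundant genes added (-0.58). With the low and high labels of the supplemented heifers swapped, the difference changed sign and was no DEG. From the 4 groups alone the difference was -0.56 (SE 0.690, adjusted p = 0.622).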

How the results depend on the processing

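From the 4 dietary groups alone, the count of DEG among the members was 0 in all 7 comparisons under each of the 10 alternatives, and at an unadjusted p under 0.05 it was 0 as well. The median log2 fold change of the members did not keep its sign under all of them: it ran from -0.33 to 0.10 for n-3 PUFA on the low plane, from -0.26 to 0.13 for the plane in n-3 PUFA heifers, from -0.14 to 0.26 for the interaction and from -0.19 to 0.02 for the plane averaged over supplements. The sign changed with the share of the 100 most abundant genes as covariate in these 4 comparisons (0.10, 0.12, 0.23 and 0.01). The upper ends for the last 3 came from swapping the plane labels, which for the plane in n-3 PUFA heifers turns the sign by construction. Leaving out 1 heifer at a time gave 0 to 1 DEG for the plane effect under n-3 PUFA (ENSBTAG00000012894, -1.17, edgeR adjusted p = 0.0833 without PUFA_Low 11) and 0 in the other 6 comparisons.

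The number of members was 101 with r over 0.7, 20 with r over 0.9 and 30 with a basal mean under 5 CPM. It was 51 to 75 under the other alternatives of the rule and 51 to 55 without 1 heifer.

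All alternatives at equal anchor level were chosen after seeing the data, and the share of all genes called under each stands in brackets. For the plane effect under n-3 PUFA (4 DEG) the count was 0 with the share of the 100 most abundant genes added (0.327%), 0 at an adjusted p under 0.001 (1.85%), 9 at any fold change (34.6%), 3 with the code prefix as a block (5.34%), the replicate block (4.89%) or a squared term (5.83%), 5 with ENSBTAG00000016061 in place of the anchor gene (5.81%), and 2 to 5 without 1 heifer (2 without PUFA_Low 10, 5 without PUFA_Low 4). For the interaction (1 DEG) it was 0 with no filter (6.45%), with the code prefix as a block (7.55%), with the replicate block (6.39%), with the share (0%) and at an adjusted p under 0.001 (0%), 2 with a squared term (7.99%) or with ENSBTAG00000016061 in place of the anchor gene (8.67%), and 0 to 2 without 1 heifer. With the plane labels of the supplemented heifers swapped it was 1 (2.4%), a member other than ENSBTAG00000013167. For the plane averaged over supplements (0 DEG) it was 1 with upper-quartile factors (0.334%), with a squared term (0.327%) and at any fold change (5.70%), and 0 to 1 without 1 heifer. For n-3 PUFA on the low plane (0 DEG) it was 1 at any fold change (20.3%) and 0 to 1 without 1 heifer, and for n-3 PUFA on the high plane (0 DEG) it was 1 with the plane labels of the supplemented heifers swapped (1.56%). The cause was not tested.

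With low and high labels swapped among the supplemented heifers, their plane effects turned by construction to 0.67 for ENSBTAG00000012894, 0.83 for ENSBTAG00000013338, 0.62 for ENSBTAG00000013167 and -0.59 for ENSBTAG00000011563, and the interaction of ENSBTAG00000013167 turned to 0.34. Leaving out 1 heifer moved them over -0.76 to -0.61, -0.92 to -0.62, -0.72 to -0.41, 0.51 to 0.65 and, for the interaction, -1.06 to -0.73.

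Replicate numbers do not pair the heifers: the mean r of same-numbered heifers' deviations from their group means was -0.05, against 0.00 for different numbers, and 2 of 60 heifers correlated best with their own number. The replicate block gave 0 DEG among the members in all 7 comparisons of the 4 groups alone, and at equal anchor level ENSBTAG00000013167 had -0.52 for the plane effect under n-3 PUFA and -0.86 for the interaction, neither a DEG. With 11 to 1637 reads per member in the 14 low heifers, depth limits what can be seen at the basal level, and the confidence intervals limit what the 0 counts show.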
